A study of Mus musculus with 5 samples.

Results

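Aminoacyl-tRNA synthetases are the enzymes that join each amino acid to its transfer RNA (tRNA), and 34 of the 16504 named genes on the array were synthetase genes. They were chosen by gene symbol, with every symbol that follows the naming pattern of the family taken in. The measured ratios entered that choice through the gene names: the spots received their names through an order selected on the log2 ratios of these same 5 arrays. The ratios and adjusted p-values of the synthetases are therefore given as descriptions of the arrays and support nothing about the names.

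Each synthetase works in 2 steps, first activating its amino acid with ATP and then passing it to the tRNA. Cells keep one set of these enzymes in the cytosol and another in mitochondria, all of them encoded in the nucleus, and by convention the symbol of a mitochondrial gene ends in 2. A number of cytosolic synthetases sit together in a multisynthetase complex. In developing T cells, protein synthesis and mitochondrial translation both accompany the bursts of division that follow successful receptor gene rearrangement.

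Thymus RNA of ZAS3-null mice was set against thymus RNA of wild-type littermates, matched for sex and age, at 6 to 8 weeks. ZAS3 is a DNA-binding zinc finger protein, encoded by Hivep3, whose targets resemble the kappaB element. Each of the 5 two-colour arrays, which form 1 group of replicates, held 1 ZAS3-null and 1 wild-type thymus. The strain, the make of the null allele and the cells in which it acts are not given in the sources used here, and the sample labels name whole thymus where the design text names thymocytes.

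Every value is a log2 ratio, so 1 unit is a 2-fold difference, and a positive ratio likely means more RNA in ZAS3-null than in wild-type thymus. That direction rests on how the samples are titled and on which channel is listed first. It is not settled, because the sample labels put ZAS3-null RNA in Cy5 and the design text puts it in Cy3, and no array had the dyes swapped. The targeted gene, Hivep3, had 0.07, 0.15, -0.03, 0.09 and 0.10 on arrays 1 to 5 (mean 0.08 ± 0.07, SD, n = 5; limma adjusted p = 0.37), with a corrected mean of 0.17 ± 0.09. These values, each the average of 2 probes, did not settle the direction. The part of the gene that was deleted is not given, and the gene's spots were named through the same selected order. What set the Hivep3 ratio was not tested. A ratio from whole tissue cannot tell fewer cells of a type from less RNA per cell.

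Ratios drifted across the slide on every array, so ratios were read both as deposited and after position correction, which took away the median of a window of 21 by 21 spots around each spot. The first 10 slide columns had medians of -0.25 to -0.11 on the 5 arrays and the last 10 had 0.23 to 0.31. The order used here put 256 of 256 spots with very low ratios on numbers without a gene, against 41 of 256 for the numbers as deposited. Since the order was selected on these ratios, that placement and the correlations of probes are descriptions and no evidence for the names. Agreement between different probes of a gene was weak. For 387 pairs of probes of a gene with the same accession the correlation of mean ratios was 0.23, against 0.03 by deposited numbers, and for 682 pairs with different accessions it was 0.10 against 0.06. Of the 34 synthetases, 30 had 1 probe and 4 had more than 1.

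As deposited, 12 of the 34 synthetases (35.3%) passed an adjusted p of 0.05 against a ratio of 0, where 24.8% of all named genes did. Of these, 4 were positive, namely Lars2, Gars, Ears2 and Hars, and 8 were negative, namely Kars, Yars2, Cars, Iars2, Wars, Eprs, Lars and Iars. Over all named genes 12.0% were positive and 12.9% negative past that threshold. After position correction 3 of the 34 (8.82%) passed, against 2.91% of all named genes. These were Lars2 on the positive side, where 0.612% of named genes passed, and Iars2 and Yars2 on the negative side, where 2.30% did. All 3 are mitochondrial and all 3 had also passed as deposited. The test was limma's moderated statistic, adjusted with Benjamini-Hochberg over all 20861 features. Because the names rest on these ratios, nothing is read from the counts. Without array 3 or without array 4 the corrected count was 0 with limma, while 14 and 13 synthetases had an unadjusted p under 0.05. Over all named genes those fits called 107 and 28, and the fit of all 5 corrected arrays called 481. Leaving out array 1 or array 5 gave 1 synthetase (57 and 23 of all named genes), and leaving out array 2 gave 4 (1152). At an unadjusted p under 0.05 the fit of all arrays held 16 of the 34 synthetases after correction, where 27% of all named genes were under it, and 14 as deposited, where 40.3% were. On the deposited ratios a fit lacking array 5 gave 4 synthetases, one lacking array 1 or array 4 gave 7, and fits lacking array 3 or array 2 gave 9 and 12. Over all named genes those 5 fits called between 734 without array 5 and 4763 without array 2, against 4095 with all arrays.

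**Figure D1:**
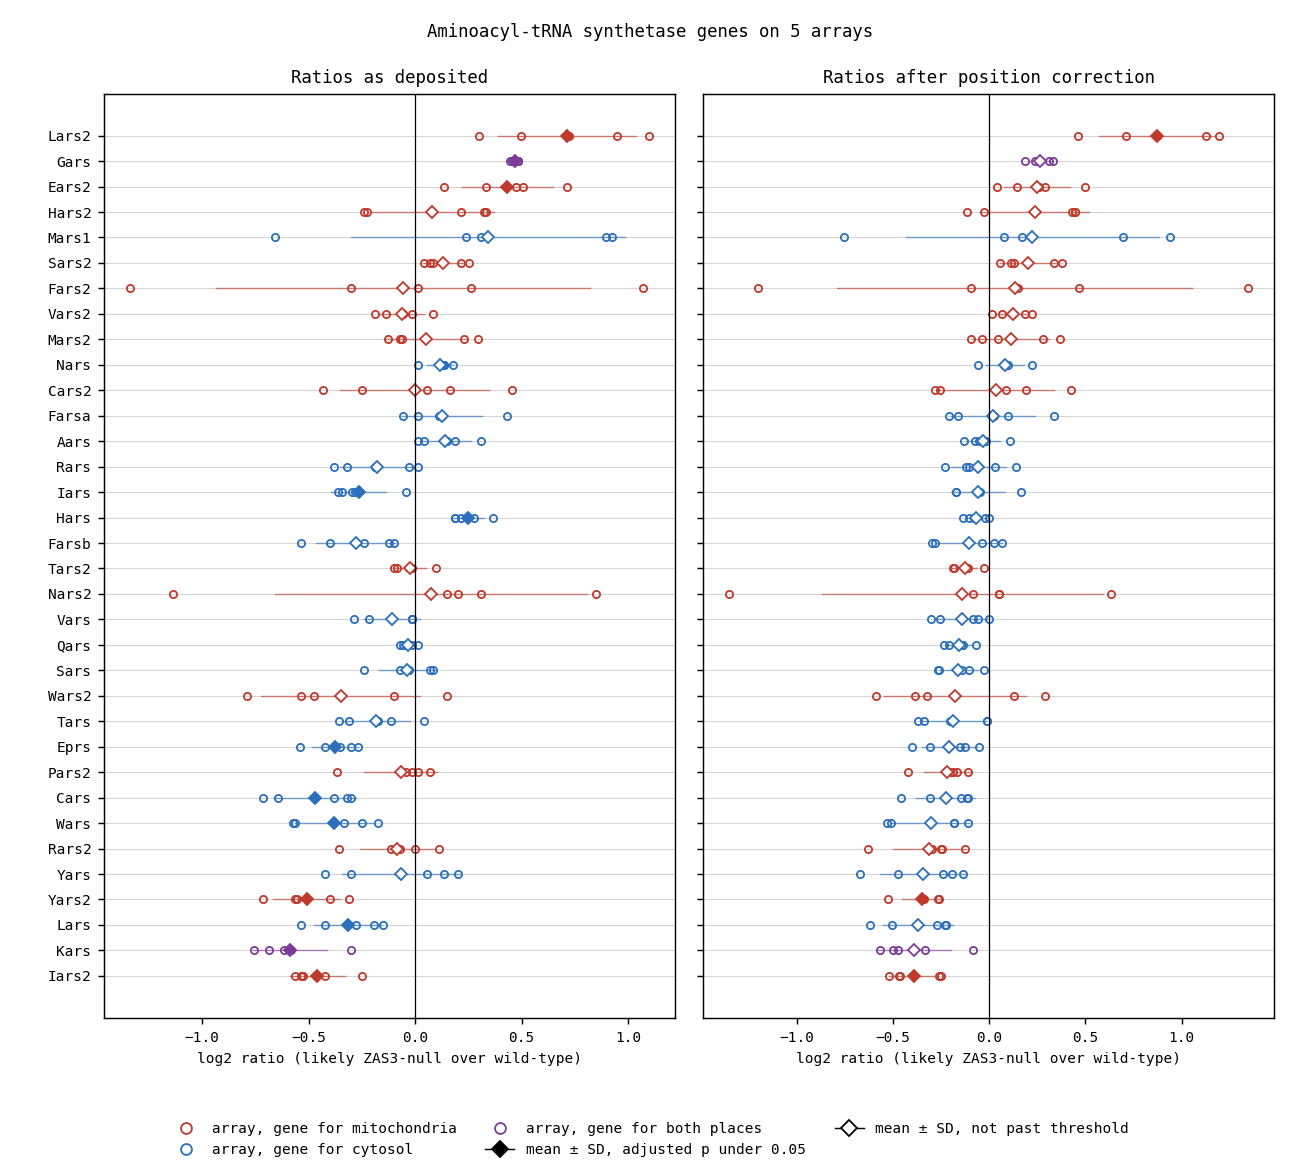
Log2 ratios of the 34 synthetase genes on 5 arrays, as deposited (left) and after position correction (right), with genes ordered by corrected mean. Open circles are single arrays and diamonds are means ± SD, filled where the adjusted p is under 0.05. Lars2 stands apart at the top with a corrected mean of 0.87, while Fars2, Nars2 and Mars1 have the widest spread between arrays.

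Lars2, which charges mitochondrial leucine tRNA, had the most positive ratio of the family in both forms. Its deposited ratios on arrays 1 to 5 were 1.10, 0.95, 0.72, 0.50 and 0.30, a mean of 0.71 ± 0.33 (1.64-fold; limma adjusted p = 0.0124). Every array was positive, with arrays 1 and 2 the highest and arrays 4 and 5 the lowest. After position correction the ratios were 1.20, 1.12, 0.87, 0.71 and 0.46, a mean of 0.87 ± 0.30 (1.83-fold; limma adjusted p = 0.0122, 95% interval of the fit 0.59 to 1.15). Among all 16504 named genes Lars2 held rank 39 from the most positive as deposited and rank 5 after correction. Its single probe lay in column 5, at the side of the slide where deposited ratios were mostly negative, and the 8 spots next to it had corrected means between -0.23 and 0.18. The corrected call of Lars2 was lost without array 3 (adjusted p = 0.0615) or array 4 (0.0573), and the deposited call was kept whichever array was left out (adjusted p up to 0.0426).

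Iars2, which charges mitochondrial isoleucine tRNA, and Yars2, which does so for tyrosine, had negative ratios on all 5 arrays. For Iars2 the deposited ratios were -0.53, -0.42, -0.54, -0.25 and -0.57 and the corrected ones -0.47, -0.26, -0.47, -0.25 and -0.52. Array 4 was the weakest in both forms, shared after correction with array 2. Its mean was -0.46 ± 0.13 as deposited (adjusted p = 0.00888, limma) and -0.39 ± 0.13 after correction (adjusted p = 0.0361). Deposited ratios of Yars2 were -0.31, -0.71, -0.57, -0.56 and -0.40 and corrected ones -0.27, -0.52, -0.34, -0.34 and -0.26, with array 2 the most negative. The means were -0.51 ± 0.16 (limma adjusted p = 0.00872) and -0.35 ± 0.11 (adjusted p = 0.0413). The probe of Iars2 lay near the middle of the slide, in column 50 and row 99. That of Yars2 lay in a middle column, 54, but at the edge of the slide in row 2. The local median subtracted was on average -0.07 for Iars2 and -0.16 for Yars2. With array 1, 3, 4 or 5 left out neither gene passed after correction (highest adjusted p 0.181 for Iars2 and 0.169 for Yars2), and the deposited call of Iars2 was lost without array 5 (0.0509).

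The upstream sequences of these 3 genes are shown because ZAS3 is known to bind kappaB-like DNA and the 3 passed in both forms, Lars2 with the opposite sign to the other genes. They are the 250 bases before the RefSeq start site (build GRCm38.p6), 5′ to 3′ on the strand named, and capitals mark each match to a loose kappaB pattern (GGG, then 5 bases of any kind, then CC) on either strand.
Lars2, chr9:123366677-123366926, plus strand: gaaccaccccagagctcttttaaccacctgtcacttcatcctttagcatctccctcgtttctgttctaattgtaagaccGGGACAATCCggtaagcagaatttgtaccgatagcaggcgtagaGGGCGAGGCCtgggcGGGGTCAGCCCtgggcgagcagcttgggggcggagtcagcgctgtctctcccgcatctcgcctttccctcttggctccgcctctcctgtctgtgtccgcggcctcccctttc
Iars2, chr1:185329402-185329651, minus strand: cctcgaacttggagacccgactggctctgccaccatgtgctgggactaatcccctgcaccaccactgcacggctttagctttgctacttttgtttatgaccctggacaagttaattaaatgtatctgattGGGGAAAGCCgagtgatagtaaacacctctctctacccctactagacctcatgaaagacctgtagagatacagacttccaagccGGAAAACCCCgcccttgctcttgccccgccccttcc
Yars2, chr16:16302715-16302964, plus strand: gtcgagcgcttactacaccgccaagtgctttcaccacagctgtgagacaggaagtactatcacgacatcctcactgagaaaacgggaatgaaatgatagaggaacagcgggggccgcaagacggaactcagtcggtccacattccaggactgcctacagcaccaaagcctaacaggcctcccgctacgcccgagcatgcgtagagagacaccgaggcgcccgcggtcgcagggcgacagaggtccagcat

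In the window from 250 bases before to 50 bases after the start site, Lars2 had 5 matches, 2 of which overlap by all but 1 base, Iars2 had 2 and Yars2 had 1. The match of Yars2 and 1 of Lars2 lay past the start site and are not shown. This pattern is common, and was present in 50.8% of all 32851 RefSeq promoters of that length and in 20 of the 25 synthetase promoters found in the table, whose median GC content was 58.0% against 52.7% of all. A match describes letters in the window and is neither a binding site nor a cause.

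Gars and Kars each serve both the cytosol and mitochondria from 1 gene, and their ratios had opposite signs. Gars, the glycine enzyme, had 0.49, 0.44, 0.45, 0.49 and 0.49 on arrays 1 to 5 as deposited, a mean of 0.47 ± 0.02 (limma adjusted p = 0.00427), and its arrays were nearly alike. Kars, the lysine enzyme and a member of the multisynthetase complex, had -0.59, -0.76, -0.30, -0.61 and -0.69, a mean of -0.59 ± 0.18 (adjusted p = 0.00707, limma), with array 3 the weakest. Gars had the second most positive and Kars the most negative mean of the family as deposited. After correction Gars had 0.31, 0.33, 0.24, 0.19 and 0.26 (mean 0.27 ± 0.06) and Kars had -0.47, -0.57, -0.08, -0.33 and -0.50 (mean -0.39 ± 0.19). Neither passed then, with a limma adjusted p of 0.0569 for Gars and 0.0573 for Kars. Both deposited calls were kept whichever array was left out. Gars lay in column 87 and Kars in column 11, so the sign of each matched that of its side of the slide.

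**Figure D2:**
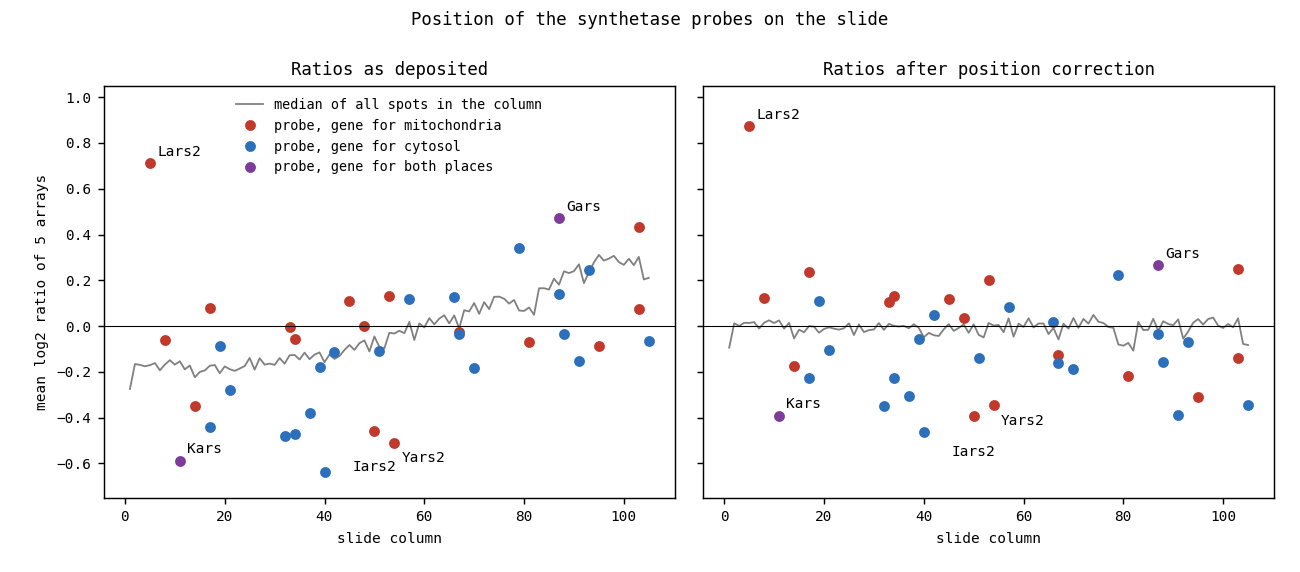
Mean log2 ratio of each of the 38 synthetase probes against its slide column, as deposited (left) and after position correction (right), with the median of all spots in each column as a grey line. As deposited the column medians climb from left to right. After correction the line stays near 0, and Lars2, in column 5, stands apart in both panels.

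Deposited values across the family moved with position on the slide. In the first 35 slide columns 2 of 12 synthetase probes had a positive mean as deposited, and in the last 35 columns 6 of 11 had one. After correction those counts were 6 of 12 and 3 of 11. Across the 34 genes, which share the same 5 arrays, the deposited mean correlated at 0.49 with the local median that was subtracted, and the corrected mean at -0.08. For 6 genes the mean changed sign on correction. Hars, for histidine, was 1 of them. It had 0.19, 0.21, 0.28, 0.37 and 0.19 as deposited (mean 0.25 ± 0.08; limma adjusted p = 0.0291) and a corrected mean of -0.07 ± 0.06. Only in the fit lacking array 2 was its deposited call kept (highest adjusted p of the others 0.0991). Its mitochondrial partner Hars2 had 0.32, 0.21, -0.23, -0.24 and 0.33 and did not pass in either form.

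The multisynthetase complex holds several cytosolic enzymes as well as Kars, and 6 of its 7 measured members had negative means in both forms. Among named genes 53.7% of means were negative as deposited and 51.6% after correction. As deposited 4 of the 7 passed, all negative, where 12.9% of named genes were negative past the threshold. These were Kars, Eprs, Lars and Iars. None of the 7 passed with limma once corrected, though 4 of the 7 had an unadjusted p under 0.05, against 27% of named genes. The median of the 7 was -0.27 as deposited and -0.16 after correction, beside -0.03 and -0.01 for all named genes. The 11 genes for the cytosol alone outside the complex had medians of -0.065 and -0.14, with 7 and 9 below 0. After correction the negative lean was therefore not particular to the complex. Eprs, the joined enzyme for glutamate and proline, had -0.54, -0.30, -0.35, -0.27 and -0.43 as deposited (mean -0.38 ± 0.11; limma adjusted p = 0.012), every array negative. Its 2 probes carry the same accession and disagreed in size, with means of -0.11 and -0.64 in the deposited ratios and 0.05 and -0.46 in the corrected ones. The call of Eprs was lost without array 5 (0.0608).

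Lars, for leucine, had -0.54, -0.28, -0.19, -0.15 and -0.42 as deposited (mean -0.32 ± 0.16; limma adjusted p = 0.0311). All arrays were negative, and correction moved the mean to -0.37 ± 0.18 (adjusted p = 0.0604). Its probes lay far apart on the slide, in columns 91 and 32, and differed as deposited (-0.15 and -0.48) more than after correction (-0.39 and -0.35). Lars kept its deposited call only in the fit lacking array 2 (highest adjusted p of the others 0.117), and the corrected ratio passed without array 2 (0.0425). Iars, for isoleucine, had -0.28, -0.04, -0.29, -0.36 and -0.34 (mean -0.27 ± 0.13; limma adjusted p = 0.0377) and -0.06 after correction, with array 2 near 0 as deposited. Its probes had -0.09 and -0.44 as deposited and, with opposite signs, 0.11 and -0.23 after correction. The call of Iars too was kept only in the fit lacking array 2 (highest adjusted p of the others 0.135). Median centring also ended it (0.0659). Rars (-0.18) and Qars (-0.03) had smaller negative means, and Mars1, for methionine, had -0.66, 0.93, 0.24, 0.90 and 0.31, with array 1 opposite to the other arrays.

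Per array, the median of the 7 complex members as deposited was -0.54, -0.28, -0.29, -0.15 and -0.34 on arrays 1 to 5, lowest on array 1. After correction it was -0.40, -0.07, -0.14, -0.13 and -0.23. Markers of thymocytes and of dividing cells varied over the same arrays. The 12 measured of 13 thymocyte markers had medians of -0.36, -0.04, -0.01, -0.25 and -0.32, with 2 positive and 4 negative past the threshold as deposited, where 24.8% of named genes passed. After correction the medians lay in the range -0.30 to 0.09 and limma called 0 of the 12. Of the 12, 7 then had an unadjusted p under 0.05, against 27% of named genes. The 6 measured of 8 markers of dividing cells had -0.52, -0.11, 0.08, -0.23 and -0.51. Mcm2 and Pcna were negative past the threshold as deposited, where 12.9% of named genes were. Corrected medians of the 6 were -0.53, -0.08, 0.03, -0.21 and -0.46, and limma then called 0 of the 6. Of the 6, 3 had an unadjusted p under 0.05, against 27% of named genes. As deposited arrays 1 and 5 were low in all 3 lists, and array 3 was nearest to 0 in the 2 marker lists. The part of cell make-up in the synthetase ratios was not tested. The 4 measured of 5 B cell markers had array medians of 0.21 to 0.54 as deposited, with 3 positive past the threshold, where 12.0% of named genes were. After correction the medians were 0.18 to 0.34 and limma called 0 of the 4. Of the 4, 2 then had an unadjusted p under 0.05, against 27% of named genes. For the 5 of 7 macrophage markers the range was -0.07 to 0.31 as deposited and 0 to 0.24 after correction, and for the 8 markers of thymic epithelium it was -0.08 to 0.22 and -0.07 to 0.25. Each of those lists held 1 marker positive past the threshold in both forms, where 12.0% and 0.612% of named genes were. Fcgr4, of macrophages, had 0.75 ± 0.15 and, corrected, 0.48 ± 0.19 (limma adjusted p = 0.00241 and 0.0357). Foxn1, of thymic epithelium, had 0.54 ± 0.11 and 0.56 ± 0.16 (limma adjusted p = 0.00524 and 0.0135). The macrophage marker Lyz2 was negative past it as deposited only. No other marker of those lists passed in either form. The 5 fat markers ranged over -0.10 to 0.52 and -0.23 to 0.54, and the 2 of 4 erythroid markers over -0.53 to 1.63 and -0.82 to 1.46. Limma called 0 of the fat and erythroid markers in either form. Ratios carry no level, so whether a marker was present at all could not be read from them.

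Outside the complex, Cars and Wars passed as deposited. Cars, for cysteine, had -0.30, -0.71, -0.38, -0.64 and -0.32 (mean -0.47 ± 0.19; limma adjusted p = 0.0133), every array negative, and -0.23 after correction (adjusted p = 0.118). Its deposited call was lost without array 4 (0.0552) or array 5 (0.0518), and its partner Cars2 had -0.25, -0.43, 0.06, 0.45 and 0.16, which crossed 0. Wars, for tryptophan, which interferon is known to induce, had -0.58, -0.33, -0.25, -0.18 and -0.57 (mean -0.38 ± 0.18; limma adjusted p = 0.0221), again all negative. After correction Wars had -0.30 (adjusted p = 0.0923), and its deposited call was lost without array 1 (0.0633) or array 5 (0.0889). Wars2 had -0.54, -0.79, 0.15, -0.10 and -0.48 and did not pass (0.116 with limma, adjusted). Yars, for tyrosine, had -0.42, -0.30, 0.06, 0.20 and 0.14 as deposited and -0.67, -0.48, -0.24, -0.14 and -0.20 after correction. Its deposited arrays had both signs and its corrected arrays were all negative (mean -0.34 ± 0.22; adjusted p = 0.0834, limma), at the edge of the slide in its last column.

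Ears2, the mitochondrial glutamate enzyme, was the fourth gene positive past the threshold as deposited. It had 0.48, 0.33, 0.14, 0.71 and 0.51 on arrays 1 to 5 (mean 0.43 ± 0.21; limma adjusted p = 0.0202), every array positive and array 3 the weakest. In column 103 it lay where deposited ratios were mostly positive, and its corrected mean was 0.25 ± 0.17 (adjusted p = 0.115). Ears2 did not pass as deposited when array 1, 4 or 5 was left out (highest adjusted p 0.0819). Pars2, the mitochondrial proline enzyme, had 0.01, -0.37, -0.01, 0.07 and -0.04, with array 2 the lowest. Its corrected mean was -0.22, and it did not pass in either form.

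The remaining cytosolic genes passed in neither form. Aars (0.14 as deposited, -0.03 corrected), Farsa (0.13, 0.02) and Nars (0.12, 0.08) had positive means as deposited. Farsb (-0.28, -0.11), Sars (-0.04, -0.16), Tars (-0.18, -0.19) and Vars (-0.11, -0.14) had negative means in both forms. Farsa and Farsb encode the 2 subunits of one cytosolic phenylalanine enzyme. Their means had opposite signs in both forms, but after correction each gene had arrays of both signs. Among the other mitochondrial genes, Rars2 had -0.09 as deposited and -0.31 after correction, Sars2 had 0.13 and 0.20, Tars2 had -0.03 and -0.13, Vars2 had -0.06 and 0.12, and Mars2 had 0.05 and 0.11. The 2 Mars2 probes had means of 0.11 and -0.0032 as deposited. Likewise none of these mitochondrial genes passed in either form.

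A few synthetases varied far more between arrays than the rest, and they were picked out after their values were seen. Fars2, for mitochondrial phenylalanine, had -1.34, 1.07, -0.30, 0.26 and 0.01 as deposited, an SD of 0.88 that ranked 155 from the largest among 16504 named genes. Arrays 1 and 2 were at opposite ends. Nars2, for mitochondrial asparagine, had 0.15, -1.14, 0.20, 0.85 and 0.31, rank 303, with array 2 low and array 4 high. Mars1 ranked 493. At the other end Gars, with an SD of 0.02, ranked 16491. For Fars2 the 95% interval of the mean was -0.81 to 0.69, which takes in a 1.5-fold difference in either direction.

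As a family the synthetases had a median of -0.06 as deposited, with 22 of 34 means below 0 (64.7%, against 53.7% of named genes). After correction the median was -0.12, again with 22 below 0, against 51.6% of named genes. The deposited median was -0.11 without array 4 and -0.02 without array 2, and the mean over the 34 in place of the median was -0.06 after correction. On single arrays the corrected median lay between -0.14 and -0.05. The 17 genes for the cytosol alone had a corrected median of -0.14 with 14 below 0, and the 15 for mitochondria alone had 0.03 with 7 below 0. As deposited those medians were -0.11 and -0.03. Synthetases fall into class I and class II by the fold of the catalytic domain. The 18 of class I had a median of -0.10 as deposited and -0.15 after correction, and the 15 of class II had 0.07 and -0.07, with Eprs holding both. These medians are descriptions, and the difference between the groups was not tested.

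The 1.5-fold rule of the design text, met on at least 4 of 5 arrays in one direction, was met by 1 synthetase as deposited (2.94%, against 0.866% of named genes), Kars on the negative side. Kars met it narrowly, since its ratio on array 1 (-0.585) lay at the cut itself and array 3 (-0.30) fell short of it. After correction 1 met it (against 0.242% of named genes), Lars2 on the positive side. With 1 array left out and 3 of 4 required, 1 negative and 1 positive synthetase met it as deposited when array 4 or array 5 was the one left out.

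**Figure D3:**
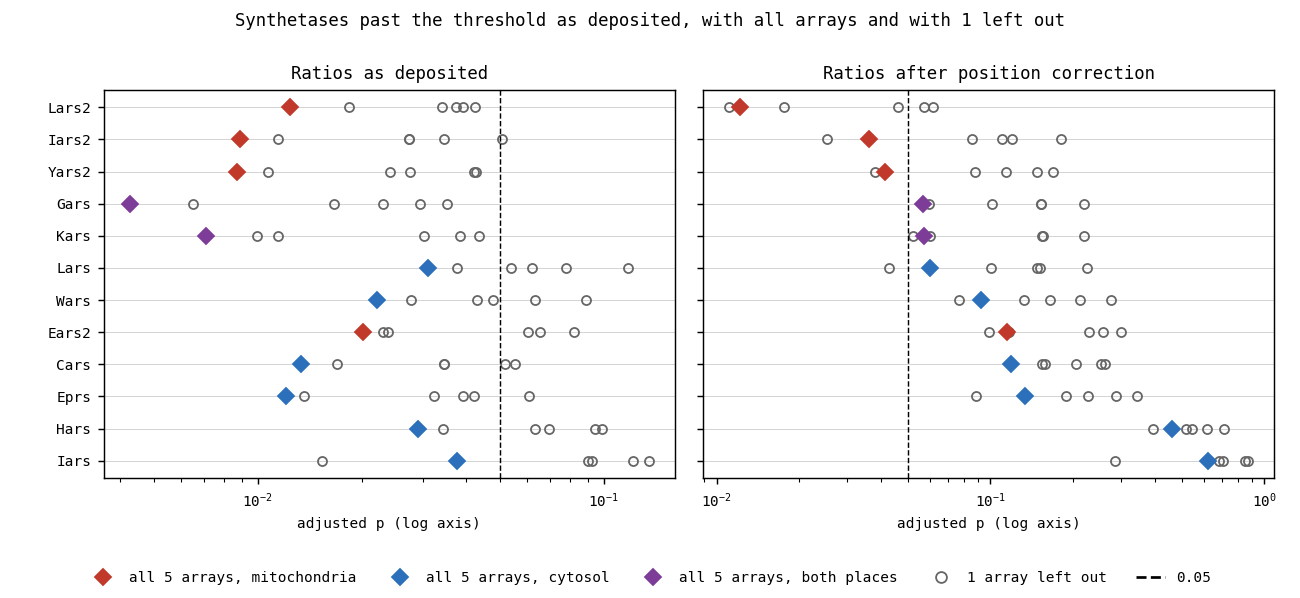
Adjusted p of the 12 synthetases past the threshold as deposited, on a log axis, for the deposited ratios (left) and the corrected ratios (right). Diamonds are fits of all 5 arrays, circles are fits with 1 array left out, and the dashed line is 0.05. On the right only Lars2, Iars2 and Yars2 have diamonds left of the line, and each has circles on the other side of it.

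Cytosolic and mitochondrial enzymes for the same amino acid were compared within each array, as the mitochondrial ratio minus the cytosolic one, over 14 pairs. After correction Lars2 exceeded Lars by 1.82, 1.35, 1.14, 0.94 and 0.97 on arrays 1 to 5 (mean 1.24 ± 0.36). The difference was positive on every array, as it also was as deposited (mean 1.03 ± 0.41). Iars2 minus Iars was -0.30, -0.43, -0.40, -0.20 and -0.35 (mean -0.34 ± 0.09), negative on every array. As deposited that pair had both signs. The single sign after correction rests on the average of 2 Iars probes, whose corrected means were 0.11 and -0.23. On arrays 1 and 4 the lower probe alone (-0.51 and -0.28) lay below Iars2 (-0.47 and -0.25). Sars2 minus Sars had a mean of 0.36 ± 0.19 and Vars2 minus Vars had 0.26 ± 0.14, both positive on 5 of 5 arrays after correction only. The other 10 pairs had both signs after correction. As deposited 2 pairs kept one sign on every array and 12 did not. A difference of 2 ratios shows unequal change and not the level of either gene.

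**Figure D4:**
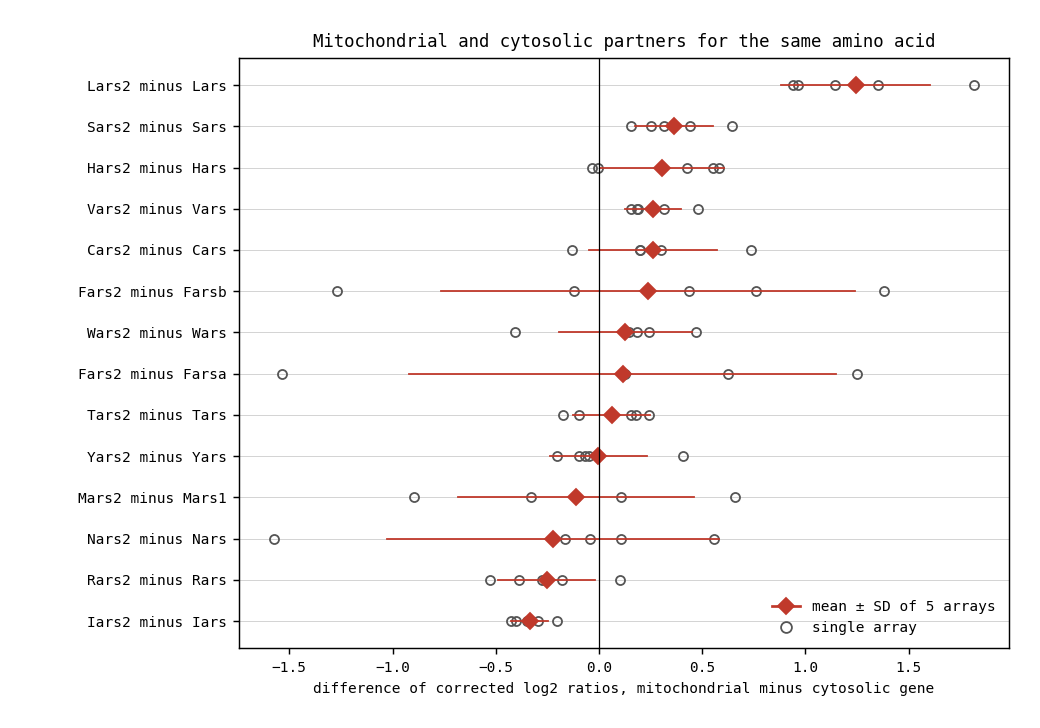
Difference of corrected log2 ratios between the mitochondrial and the cytosolic synthetase for the same amino acid, for 14 pairs. Circles are the 5 arrays and diamonds are means ± SD. Lars2 minus Lars lies above 0.9 on all 5 arrays, and Iars2 minus Iars is the pair at the bottom, below 0 on all 5. Iars is the average of 2 probes with corrected means of 0.11 and -0.23.

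Cytosolic synthetases are known targets of ATF4, the transcription factor of the amino acid response, and its element TGATGNAA was searched on both strands of the 25 synthetase promoters in the RefSeq table. It was present in 5 of them (20%) and in 3.97% of all promoters of that length. All 5 are genes with a cytosolic product: Yars, Gars, Aars, Iars and Tars. The element is shown in capitals with 8 bases on either side, on the strand on which it reads TGATGNAA (build GRCm38.p6), so that the sites can be compared.
Yars, chr4:129189898-129189921, plus strand: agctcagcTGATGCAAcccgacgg
Gars, chr6:55037963-55037986, minus strand: ccggtgcaTGATGAAAtagcgcag
Aars, chr8:111033722-111033745, minus strand: ggctcggcTGATGCAAtgctcaag
Aars, chr8:111033843-111033866, minus strand: gagcgctcTGATGAAAagtgaccc
Iars, chr13:49682129-49682152, minus strand: tctggaggTGATGCAAtactgaca
Tars, chr15:11399658-11399681, plus strand: taaccagcTGATGCAAcgggactc

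Aars held 2 of these matches. Those of Yars and Iars and 1 of the Aars matches began past the start site. The 5 genes with the element did not share a direction. Gars was positive in both forms and Tars and Iars negative in both, Aars had 0.14 as deposited and -0.03 after correction, and Yars had -0.07 and -0.34. The corrected mean of Iars, -0.06, averages probes at 0.11 and -0.23. The E-box CACGTG, which Myc and related factors bind, was present in 5 of the 25 promoters (7.15% of all), and the ETS site CCGGAAGT in 3 (3.89% of all). The NRF1 site, GCGCA followed directly by TGCGC, was present in 0 (0.971% of all). Lars2, Iars2 and Yars2 held none of these 4 motifs in this window.

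Other genes of the amino acid response, which ATF4 switches on when uncharged tRNA builds up, went both ways. Of 27 measured, 5 were positive and 3 negative past the threshold as deposited, where 12.0% of named genes were positive and 12.9% negative, with a median of 0.08. Cebpg, a partner of ATF4, had 0.66 ± 0.25 and Psat1, of serine synthesis, 0.41 ± 0.12. Mthfd2, of mitochondrial folate metabolism, had 0.43 ± 0.20 and Vldlr, a lipoprotein receptor, -0.32 ± 0.11. Once corrected, 0 of the 27 passed with limma, while 12 of the 27 had an unadjusted p under 0.05, against 27% of named genes. The median was then 0.02, beside -0.01 for all named genes.

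Uncharged tRNA engages initiation factor eIF2 through the kinase Gcn2. As deposited 12.9% of named genes were negative and 12.0% positive past the threshold. Of 15 measured genes for the kinases, subunits and phosphatases of eIF2, 0 were positive and 3 negative. These were Ppp1r15b, a phosphatase subunit that restores eIF2 (-0.44 ± 0.10), the endoplasmic reticulum stress kinase gene Eif2ak3 (-0.43 ± 0.22) and the subunit gene Eif2s2 (-0.23 ± 0.06). Next by p was the kinase gene Eif2ak2, positive at 0.30 ± 0.20 and not past the threshold (limma adjusted p = 0.0519). Eif2ak4, the gene of Gcn2, had -0.09 ± 0.21 as deposited. After correction it had -0.31 ± 0.14, negative on every array and not past the threshold (limma adjusted p = 0.062). With corrected ratios limma called 0 of the 15, and 4 had an unadjusted p under 0.05, about the share of all named genes (27%). Elongation factors carry charged tRNA to the ribosome or move it along. Of 11 measured, 2 were negative as deposited, where 12.9% of named genes were, Eef1a1 at -0.44 ± 0.24 and the kinase gene Eef2k at -0.44 ± 0.21. After correction limma called 0, when 5 of the 11 had an unadjusted p under 0.05, against 27% of named genes.

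Among 13 measured scaffolds, paralogs and partners of the synthetases, 3 were negative and 0 positive as deposited, and 2 were negative after correction. Of named genes 24.8% and 2.91% passed in those forms in either direction, and 12.9% and 2.30% passed on the negative side. Mtfmt, which formylates the initiator methionine tRNA of mitochondria, had -0.99, -0.81, -0.64, -0.61 and -0.68 on arrays 1 to 5 (mean -0.75 ± 0.15; limma adjusted p = 0.00279). It stayed past the threshold after correction at -0.57 ± 0.19 (adjusted p = 0.0188), negative on every array. Aimp1, a scaffold of the multisynthetase complex, had -0.35 ± 0.19 (limma adjusted p = 0.0326) and -0.16 after correction, and Gatc had -0.29 ± 0.16 and -0.10. Neither passed after correction. Qrsl1, which with Gatc belongs to the enzyme that makes mitochondrial glutamine tRNA, had -0.17 ± 0.14 as deposited and passed after correction at -0.31 ± 0.08 (limma adjusted p = 0.0481).

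Of 30 measured genes of tRNA processing and modification, 3 were positive and 7 negative as deposited, where 12.0% and 12.9% of named genes were. After correction 1 was positive and 1 negative, where 0.612% and 2.30% of named genes were. Trmt61a, a subunit of a tRNA methyltransferase, passed in both forms (0.27 ± 0.09 and 0.36 ± 0.12; limma adjusted p = 0.0265 and 0.0422). Elp2, of the Elongator complex, had -0.07 ± 0.11 and passed after correction at -0.35 ± 0.13 (limma adjusted p = 0.0462). Trmt61a, Elp2 and Qrsl1 were named after their values were seen. The pseudouridine synthase gene Pus7 (0.46 ± 0.09), the tRNA deaminase subunit gene Adat2 (-0.65 ± 0.21), Elp4 (-0.38 ± 0.11) and Ssb, which binds new tRNA transcripts (-0.52 ± 0.24), passed as deposited and not after correction.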

How the data were processed

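The table deposited by the authors holds 1 log2 ratio of the 2 channels for each of 22575 spots on each of 5 arrays, with 0 missing values. The design text names GenePix for image reading and global lowess in GeneTraffic 2.6 for normalization. No filter on dim spots was made, since brightness and flags were not analysed here, and precision is limited by the number of arrays. Of the probes, 18218 carried 1 gene in the platform annotation, 16 more than 1 and 4341 none, and all 34 synthetases matched the RefSeq table by gene number.

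Gene names were placed with rows and columns of the slide exchanged, an order selected on these same ratios. Probes of a gene were averaged, which gave 20861 features with the unnamed spots. Each was tested against 0 by an intercept-only limma fit (limma 3.58.1, R 4.3.3) with eBayes and Benjamini-Hochberg adjustment over all features, as deposited and after subtracting the median of 21 by 21 spots, which left out 256 spots below -1.5 on every array. Arrays were neither centred nor scaled. Separate mice are named for each array, and p-values measure their spread together with technical spread. Dye and genotype cannot be told apart.

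Genes past the threshold in either form, those with a mean beyond 0.5, and their partners in the other compartment were given array by array, and up to 4 genes of each related list by smallest p. Members, lists and alternatives were chosen with earlier results of these data known. The steps were tested on simulated data. Promoters of 25 synthetases came from RefSeq (GRCm38.p6), and 9 had no entry.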

Additional observations from a re-analysis of the deposited data

Results flagged for a closer look

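In 34 synthetases and 2 forms of the ratio, 68 sets of 5 arrays were looked at for an array far from the others, and 2 had one; chance gives about 1 in 20. Both were array 2 as deposited. Iars had -0.0412 on array 2, against -0.36 to -0.28 on the other arrays. Pars2 had -0.3674 on array 2, against -0.04 to 0.07 on the others. Neither gene was set apart in this way after position correction.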

How the results depend on the processing

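Of the alternatives for the count of synthetases past the threshold, robust eBayes, median centring and single probes left it within 1.5 times in both forms, and so did the 11 by 11 window and column and row medians for the corrected ratios. The corrected count was 6 with arrays scaled to a common spread, 11 with array weights (2899 named genes were then called, against 481), 0 at an adjusted p under 0.01 and 16 at an unadjusted p under 0.05. At an adjusted p under 0.01 the deposited count was 4. Names by deposited probe numbers, which put other spots under these genes, gave 5 as deposited and 0 after correction with limma (6 with an unadjusted p under 0.05), medians of 0.055 and 0.0501, and 0 genes at 1.5-fold in either form. With 1 array left out the counts ran from 4 to 12 as deposited and from 0 to 4 after correction, the medians from -0.1113 to -0.0248 and from -0.1453 to -0.0801, and the genes at 1.5-fold from 1 to 2 and stayed at 1 after correction. The mean in place of the median was -0.0581 after correction, and 5 genes met 1.3-fold as deposited. For single synthetases the alternatives scored were the fits with 1 array left out and median centring. Of these, 22 lost a call as deposited, and 10 lost and 1 gained one after correction. None of them changed the sign of a called ratio. The other alternatives were not scored gene by gene. A fit of 4 arrays has fewer samples, and the cause of these changes was not tested. Each array already holds the ratio of 1 pair of mice, so the fit against 0 is itself a paired comparison, and no other pairing was added.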
